A study of Mus musculus with 12 samples.

Results

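The cells described are lymph node endothelial cells of Cre-positive mice in which at least 1 transcript of mRFP, a gene for a red fluorescent protein, was counted. They were chosen from the 3 Cre-positive CD31 libraries (vehicle, day 3 and day 7 of oxazolone, with 1 library each). A barcode was kept as a cell with 1000 or more UMIs (molecular tags that each mark 1 captured transcript), 500 or more genes and no more than 10% of UMIs from mitochondrial genes. Of these, a cell was taken as endothelial with at least 2 UMIs of Pecam1 and Cdh5 together and 0 of Ptprc, Cd79a and Cd3e. This gave 14337 endothelial cells, of which 1144 had an mRFP UMI: 273 of 4548 at vehicle, 605 of 5937 at day 3 and 266 of 3852 at day 7. The whole series holds 95358 kept cells in 12 libraries.

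All mice were C57BL/6 carrying Atg12 fl/fl, and tamoxifen was given to every mouse, per the labels' protocols. The Cre-positive mice also carried CDH5 CreER, a tamoxifen-activated recombinase under the promoter of VE-cadherin, which is active in blood and lymphatic endothelium. Inflammation was induced with 4% oxazolone, a contact sensitiser, on the abdominal skin, and the vehicle mice received acetone and olive oil alone. The number of animals behind each library is not given in the labels. The genotype label of these libraries names no reporter, although the design text lists reporter strains elsewhere in the study, so the origin of the mRFP transcript is not given in the sources used here. The same feature is listed for 1 Cre-negative CD31 library, that of day 7, which serves as the background; the other 2 Cre-negative CD31 libraries do not list it.

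Atg12 is a ubiquitin-like protein that is joined to Atg5, and this conjugate helps to attach LC3 to the growing autophagosome membrane. A fluorescent protein gene is commonly placed behind a stop cassette so that Cre switches it on, or is fused to LC3 to follow autophagy. Lymph node endothelium includes high endothelial venules (HEVs), where lymphocytes leave the blood, capillaries, which exchange solutes and take up fatty acids, and lymphatic sinuses, which carry antigen and chemokines. Whether a cell that shows the reporter differs in its other transcripts from one that does not is the comparison made here.

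The endothelial label was checked in the mRFP-detected cells with 10 endothelial markers not used to choose them. Egfl7, a secreted endothelial factor, was detected in 98.1% to 99.2% of these cells per library and Kdr, the main VEGF receptor, in 90.5% to 94.4%. The lowest shares were those of Cldn5, a tight junction protein, at 37.0% to 61.7%, and of Robo4, a guidance receptor, at 46.6% to 52.75%. The total was 45438350 UMIs in the vehicle library, 76187731 in that of day 3 and 45930601 in that of day 7. Between 2.06% and 2.87% of kept cells had a barcode that another library also held, among them 33 of the 1144 mRFP-detected cells. One cluster led by immune genes (Cd52, Ccl8 and class II genes) came almost wholly from day 3, with 700 of its cells there against 10 and 14 in the others, and held 12 mRFP-detected cells at day 3.

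mRFP was an endothelial transcript of low level in the Cre-positive libraries. The summed endothelial cells held 300, 689 and 299 mRFP UMIs at vehicle, day 3 and day 7. The level in CPM (UMIs of the gene over all UMIs of the summed cells, times 1000000) was 12.0 at vehicle (95% exact Poisson interval 10.7 to 13.4), 20.5 at day 3 (19.0 to 22.1) and 12.1 at day 7 (10.7 to 13.5). The day 3 interval lay above both others, and those of vehicle and day 7 overlapped. These intervals cover counting error only, and with 1 library per condition there was no test between conditions. In the Cre-negative day 7 library 0 of 4985 endothelial cells had an mRFP UMI, which allows a share of up to 0.0602% by the floor of 3 counts over these cells and 0.0740% by the Clopper-Pearson interval. At these levels mRFP lay above 59.5%, 69.1% and 58.8% of the genes detected in the same cells.

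Both blood and lymphatic endothelium held mRFP. Cells with Prox1, the transcription factor of lymphatic identity, had 10.1, 18.8 and 10.2 CPM of mRFP at vehicle, day 3 and day 7. Cells without Prox1 but with Fut7 or Chst4, enzymes that build the L-selectin ligands of HEVs, had 12.7, 24.6 and 10.9 CPM. The remaining blood endothelial cells had 12.6, 19.98 and 13.6 CPM. Within each library the intervals of these classes overlap in all pairs, and in each class the day 3 value was the highest. Immune cells of the same libraries (Ptprc detected, Pecam1 and Cdh5 at 0) had an mRFP UMI in 0 of 881 cells, 5 of 1495 cells (0.334%) and 0 of 968 cells, at median depths of 4520, 3531 and 4414 UMIs, against 4506, 4301 and 5458 UMIs in the endothelial cells.

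**Figure D1:**
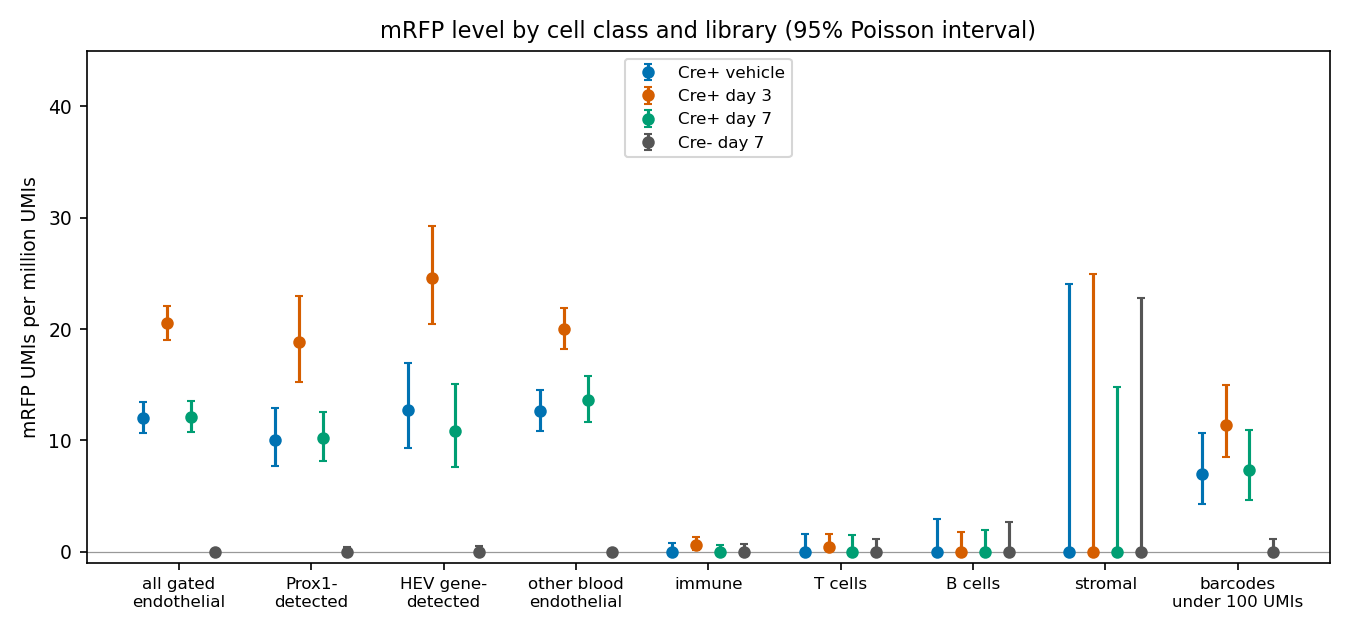
mRFP level in CPM (vertical axis) in each class of cells (horizontal axis), coloured by library; points are the level in the summed cells and bars the 95% exact Poisson interval. The endothelial classes of the 3 Cre-positive libraries sit between 10.1 and 24.6, the immune cells at 0 to 0.562 and all classes of the Cre-negative library at 0; the long bars of stromal cells reflect 21 to 35 cells per library.

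Few mRFP molecules were counted per cell. Exactly 1 UMI was seen in 246, 531 and 239 of the mRFP-detected cells at vehicle, day 3 and day 7, and 2 UMIs in 27, 64 and 21. Just inside the rule therefore stand cells with 1 UMI, and just outside it cells with 0. The share of endothelial cells with an mRFP UMI was 6.00% at vehicle (95% Clopper-Pearson interval 5.33% to 6.73%), 10.2% at day 3 and 6.91% at day 7. After each cell was thinned to 1000 UMIs, the shares were 1.28% (0.970% to 1.65%), 1.72% (1.40% to 2.08%) and 1.14% (0.831% to 1.53%), with intervals that overlap. At 2000 UMIs they were 2.33% (1.89% to 2.84%), 4.28% (3.71% to 4.91%) and 2.53% (2.04% to 3.10%), and the day 3 interval lay above both others; 427, 1334 and 290 shallower cells were left out.

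Detection followed the depth of the cell. At vehicle 1.87% of cells with fewer than 2000 UMIs had an mRFP UMI and 18.1% of cells with at least 16000. The corresponding shares were 1.35% and 42.8% at day 3, and 0.690% and 24.6% at day 7. The mRFP level in CPM over the same ranges went from 11.7 to 13.8 at vehicle and from 4.36 to 17.8 at day 7, with overlapping intervals in both (5.04 to 23.0 and 8.62 to 20.8 at vehicle, 0.529 to 15.8 and 12.99 to 23.8 at day 7). At day 3 it went from 9.28 (5.50 to 14.7) to 28.5 (23.7 to 33.9), intervals that do not overlap. The median depth was 6738 UMIs in detected against 4373 in undetected cells at vehicle, 8700 against 3975 at day 3 and 7552 against 5316 at day 7.

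A single mRFP fraction shared by every endothelial cell of a library, taken from the same mRFP UMIs, would give 13.01, 55.7 and 15.0 cells with 2 or more UMIs at these depths. Counted were 27, 74 and 27, more in each library. The same single fraction would give 286, 628 and 283 cells with at least 1 UMI. Counted were 273, 605 and 266, slightly fewer in each library. Since most detected cells held 1 UMI, an undetected cell is not shown to lack the transcript.

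**Figure D2:**
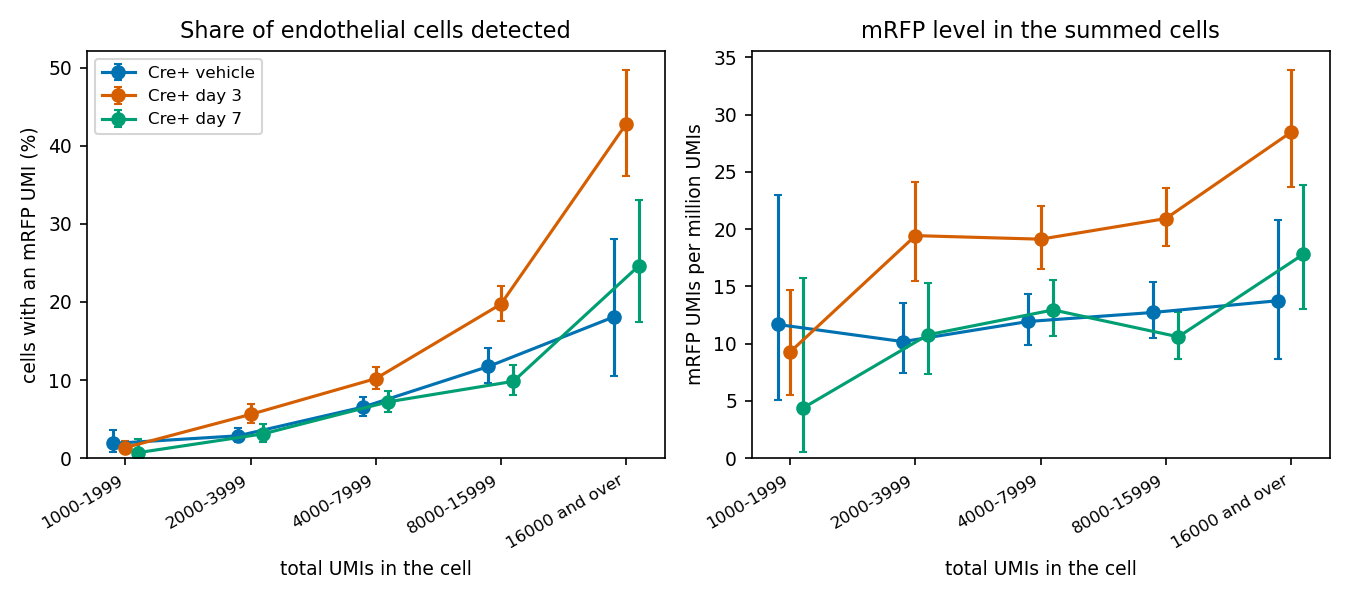
Left, the percentage of endothelial cells with an mRFP UMI (bars, 95% Clopper-Pearson interval); right, mRFP level in CPM in the summed cells (bars, 95% exact Poisson interval), both against the total UMIs of the cell in 5 ranges and coloured by Cre-positive library. The share rises to 18.1%, 42.8% and 24.6% in the deepest range, while the level at vehicle stays between 10.2 and 13.8.

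The mRFP level differed between clusters of the endothelial cells, which were grouped by 2000 variable genes. Before these were chosen, mRFP, the sex-linked genes and the mitochondrial and ribosomal protein genes were left out. The cycling-like cells, which express Mki67 and Top2a, had 23.0, 25.04 and 16.8 CPM at vehicle, day 3 and day 7. At day 7 that was below cells led by Cxcl10 and Ifit3 (19.2), led by Col8a1 and Fbln5 (18.4) and arterial-like cells (17.1). Among the 15 clusters with at least 40 cells in each library, the lowest means over the 3 libraries were in cells led by Bmp2 and Coch, with 6.91, 13.2 and 6.83 CPM, and in cells led by the noncoding RNA Gm26917 and by Lars2, with 6.73, 12.5 and 8.28 CPM; at day 7 cells led by Ccl21a, Selp and Glycam1 (8.11) were below the latter. A cluster led by the interferon-induced genes Cxcl10 and Ifit3 held 16.7, 19.7 and 19.2 CPM. These clusters were found from the same cells, so their levels are a description. Most of their intervals overlap within a library.

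**Figure D3:**
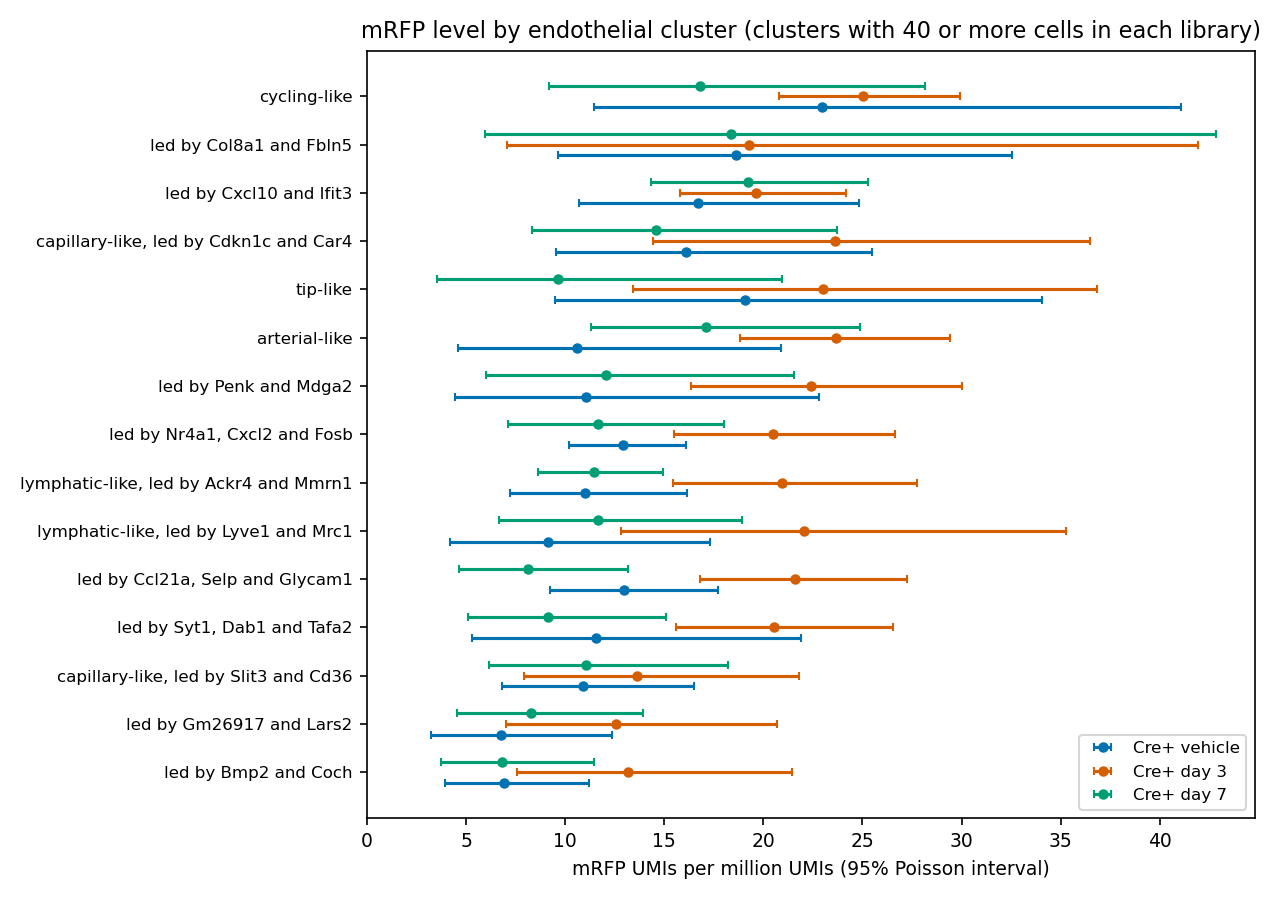
mRFP level in CPM (horizontal axis, bars are the 95% exact Poisson interval) in the 15 endothelial clusters with at least 40 cells in each Cre-positive library (vertical axis), ordered by the mean of the 3 libraries and coloured by library. Cycling-like cells stand at the top with 23.0, 25.04 and 16.8, and cells led by Bmp2 and Coch at the bottom with 6.91, 13.2 and 6.83.

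For the comparison of transcripts, each mRFP-detected cell was paired with an undetected cell of the same library, the same Prox1 status, the same Fut7 or Chst4 status and nearly the same total UMIs. Of the 1144 cells, 1122 found a partner: 271 at vehicle, 589 at day 3 and 262 at day 7, and 22 did not. After pairing, the median depth was 6696 against 6687 UMIs, 8555 against 8552, and 7466 against 7464. The median mitochondrial share was slightly lower in detected cells in each library, at 1.92% against 2.10%, 1.59% against 1.63% and 1.51% against 1.64%. Counts were summed over the paired cells and tested with edgeR's quasi-likelihood test with library as a block, so that 3 pairs of sums enter. Both sums of a pair come from 1 library, and the 3 libraries are each of another condition. Cells were not matched on animal or sex. At day 7 the arms differed in the share of cells with Xist, the X inactivation RNA (58.4% of detected against 39.7% of undetected cells). What this contributes to the differences was not tested. The test shares information on spread between genes, so the SE and p-value of a gene are not its own spread over the 3 libraries. For Nts, the log2 differences in the single libraries were -1.97, -0.56 and -0.44, with an SE of 0.15.

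Of 11056 genes tested, 39 (0.353%) were called at an adjusted p under 0.05. Among these, 7 (0.0633%) were higher and 32 (0.289%) lower in mRFP-detected cells, and 38 had the same direction in all 3 libraries. The 7 higher genes include 3 known from capillary endothelium (Car4, Gpihbp1 and Fabp4). The 32 lower genes include Tafa2, Pcdh15, Marco, Bmp2 and Ccl21a. At an unadjusted p under 0.05, 525 of the 11056 genes (4.75%) were higher and 643 (5.82%) lower, which is the background for the counts at that threshold given for gene lists. Over all genes tested the median log2 difference was 0.00, with 1778 genes (16.1%) higher and 1964 (17.8%) lower in all 3 libraries.

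Car4, a carbonic anhydrase anchored to the capillary surface (ENSMUSG00000000805, chr11:84957786-84966044 on GRCm38), stood at 106 CPM in detected against 62.9 in undetected cells at vehicle. The values were 71.9 against 47.6 at day 3 and 89.8 against 44.7 at day 7. Detected cells were higher in each library and the 2 arms did not overlap, with a log2 difference of 0.77 (SE 0.10) and an adjusted p of 0.00168. In UMIs the Car4 sums were 221 against 131, 401 against 266 and 211 against 105. Of these, 21 against 3, 8 against 15 and 50 against 3 were in cells with Prox1. Car4 was not called in those cells (log2 1.79, adjusted p 0.533). Gpihbp1, which carries lipoprotein lipase to the capillary lumen, was at 481 against 338, 276 against 245 and 395 against 293 CPM (log2 0.38, SE 0.07, adjusted p 0.0241). Fabp4, an intracellular fatty acid carrier, was at 5249 against 3596, 2889 against 2704 and 5090 against 4268 CPM (log2 0.31, SE 0.06, adjusted p 0.0385). Without vehicle neither was called: Gpihbp1 differed by 0.32 (adjusted p 0.0802) and Fabp4 by 0.20 (adjusted p 0.519). For both genes, detected cells were higher in each library, but the range of one arm overlaps that of the other across libraries.

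Of 7 capillary markers tested, 2 were called higher (Car4 and Gpihbp1) and 0 lower, and 4 were higher in all 3 libraries. Their median log2 difference was 0.30, and at an unadjusted p under 0.05, 6 were higher and 0 lower. Of 12 genes of caveolae, fenestrae and lipid handling, 2 were called higher (Fabp4 and Gpihbp1) and 0 lower, 8 were higher in all 3 libraries and the median was 0.26. At an unadjusted p under 0.05, 8 of these 12 were higher and 0 lower, beside 4.75% and 5.82% of all genes tested. DESeq2 called 0 genes of either list, as it called 0 higher genes in all (120 at an unadjusted p under 0.05). Without day 7, edgeR also called 0 higher genes (298 at an unadjusted p under 0.05). With pairs drawn within cluster Gpihbp1 differed by 0.11 (adjusted p 0.756) and Fabp4 by -0.0028, and without matching Car4 (-0.38), Gpihbp1 (-0.39), Fabp4 (-0.62) and Cd36 (-0.64) were lower in detected cells. Cd36, a fatty acid translocase, was at 856 against 627, 378 against 351 and 785 against 632 CPM and missed the threshold at an adjusted p of 0.0502. Cavin2, a coat protein of caveolae, was at 457 against 384, 306 against 266 and 569 against 441 CPM with the same adjusted p. Plvap, which forms the fenestral diaphragm, differed by 0.03 (SE 0.05), and Apoe by -0.20 (SE 0.10, adjusted p 0.490).

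The other called genes that were higher have varied roles. Cdkn1c, the cell cycle inhibitor p57 (chr7:143458339-143461050), was at 74.9 against 45.1, 20.4 against 10.0 and 43.0 against 28.1 CPM, a log2 difference of 0.80 (SE 0.13, adjusted p 0.0104). Nupr1, a stress-induced nuclear protein, differed by 0.55 (SE 0.11), Akap12, a scaffold for protein kinase A, by 0.49 (SE 0.10) and Prnd, a prion-like surface protein of endothelium, by 0.43 (SE 0.09). The libraries did not share 1 order: Nupr1 was highest at day 7, with 152 against 101 CPM, and Cdkn1c at vehicle. Cdkn1c and Car4 also lead a capillary-like cluster, which made up 6.27%, 3.40% and 6.11% of the paired detected cells and 3.32%, 2.89% and 4.58% of the undetected ones. A second capillary-like cluster, led by Slit3 and Cd36, made up 7.38%, 2.89% and 5.34% of the detected and 6.64%, 2.21% and 3.44% of the undetected ones.

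**Figure D4:**
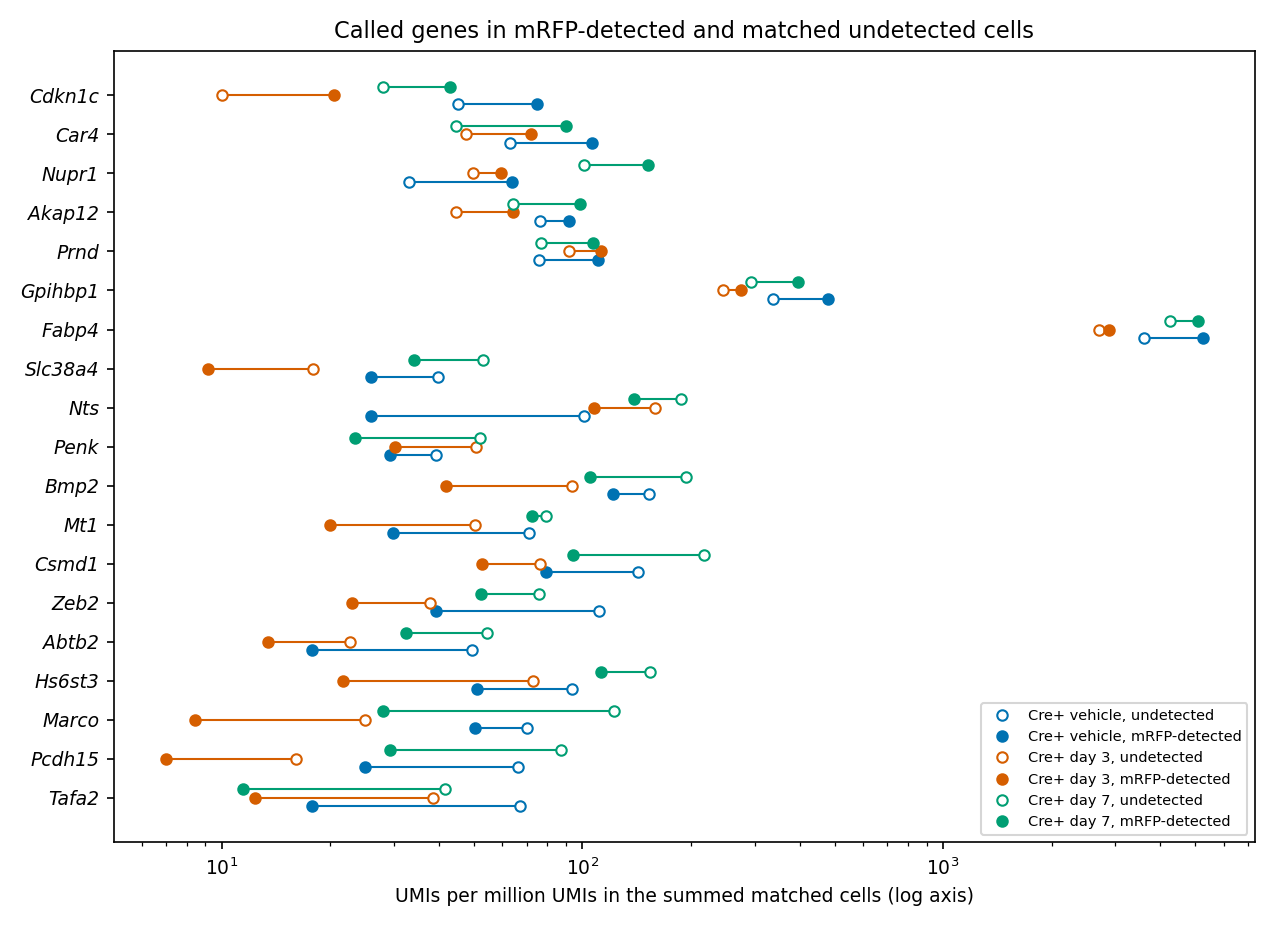
Level in CPM on a log axis for the called genes named here (vertical axis), in mRFP-detected cells (filled) and paired undetected cells (open), coloured by library and joined within each library. Tafa2 and Pcdh15 at the bottom lie to the left in detected cells in all 3 libraries (12.4 against 38.5 at day 3 for Tafa2), and Car4 and Cdkn1c at the top lie to the right.

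Tafa2, a secreted chemokine-like protein, had the smallest p of all genes (ENSMUSG00000044071, chr10:123263996-123741204, plus strand). It stood at 17.8 against 67.2 CPM at vehicle, 12.4 against 38.5 at day 3 and 11.5 against 41.7 at day 7. Every detected sum was below every undetected sum, and the log2 difference was -1.76 (SE 0.14, adjusted p 3.98e-06). In UMIs the sums were 37 against 140, 69 against 215 and 27 against 98. Of these, 16 against 124, 37 against 111 and 16 against 43 were in cells without Prox1 but with Fut7 or Chst4. Most of the vehicle difference thus lay in those cells. The cluster led by Syt1, Dab1 and Tafa2 made up 2.95%, 7.81% and 4.58% of the paired detected cells and 3.32%, 8.998% and 5.34% of the undetected ones. Pcdh15, a protocadherin (chr10:73099342-74649737), was at 24.96 against 66.2, 6.99 against 16.1 and 29.4 against 87.2 CPM, a log2 difference of -1.40 (SE 0.14, adjusted p 3.68e-05). Detected cells were lower in each library, although the day 3 undetected sum was below the detected sums of the other libraries.

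Other lower genes encode a scavenger receptor and secreted ligands. Marco, a scavenger receptor of lymphatic sinuses and macrophages, was at 50.4 against 70.1, 8.43 against 24.9 and 28.1 against 122 CPM (log2 -1.35, SE 0.20, adjusted p 0.00417). Bmp2, a bone morphogenetic protein, was at 121 against 153, 42.0 against 93.8 and 105 against 194 CPM (log2 -0.79, SE 0.11, adjusted p 0.00401). With pairs drawn within cluster Bmp2 differed by -0.32 (adjusted p 0.392). In cells with Prox1 its difference was -0.95 (adjusted p 0.108), and in cells without Prox1 or HEV genes -0.0038. Penk, the precursor of enkephalin peptides, differed by -0.76 and Nts, the precursor of neurotensin, by -0.74. In both, detected cells were lower in all 3 libraries. Nts was at 25.9 against 101, 108 against 159 and 139 against 188 CPM, and without vehicle its difference was -0.49 (adjusted p 0.00106). Bmp2 and Pcdh15 are among the leading genes of the cluster with little mRFP; it made up 5.54%, 2.21% and 5.34% of the paired detected cells and 5.90%, 3.74% and 8.78% of the undetected ones.

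Further called genes with lower values were Hs6st3, a heparan sulfate sulfotransferase, at a log2 difference of -0.97, and Abtb2 at -0.92. Hs6st3 was at 50.9 against 93.6, 21.7 against 72.9 and 112 against 154 CPM, and without day 3 its difference was -0.61 (adjusted p 0.0141). With pairs drawn within cluster Hs6st3 differed by -0.48 and was not called (adjusted p 0.307). Zeb2, a transcriptional repressor, differed by -0.88, and Csmd1, a large membrane protein with complement-control domains, by -0.84 (SE 0.11, adjusted p 0.00133). Mt1, a metallothionein, differed by -0.83 and Slc38a4, an amino acid transporter, by -0.72. Mt1 was at 29.8 against 71.0, 19.9 against 50.3 and 72.3 against 79.1 CPM; its difference was -1.29 without day 7 (adjusted p 0.00362) and -0.56 without day 3 (adjusted p 0.143), and 0.26 in cells without Prox1 or HEV genes (adjusted p 0.873). Csmd1 was at 79.2 against 143, 52.7 against 76.1 and 94.0 against 217 CPM, lower in detected cells in each library. With pairs drawn within cluster Csmd1 differed by -0.29 (adjusted p 0.756), and without day 7 by -0.66 (adjusted p 0.0774).

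The genomic spans of the called genes are given as a description, with no test. The 32 lower genes had a median genomic span of 153411 bases, the 7 higher ones 5270 and all tested genes with coordinates 25959 (GENCODE M21). Csmd1 spans 1643050 bases and Pcdh15 1550396. In the same pairs Malat1, a nuclear noncoding RNA, was at 24690 against 26790, 18920 against 19650 and 21010 against 23210 CPM, lower in detected cells in each library and not called (log2 -0.09, SE 0.04, adjusted p 0.471). The cluster led by Gm26917 and Lars2 made up 3.69%, 2.55% and 4.96% of the paired detected cells and 10.3%, 3.57% and 8.40% of the undetected ones. What these shares contribute to the lower genes was not tested.

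HEV genes gave 1 call. Of 10 HEV identity genes tested that were not used in pairing, 0 were called higher and 1 lower, with a median log2 difference of -0.06; at an unadjusted p under 0.05, 0 were higher and 4 lower. The called gene was Ccl21a, a chemokine that guides T cells and dendritic cells, which was at 1347 against 1462, 677 against 996 and 373 against 739 CPM (log2 -0.52, SE 0.10, adjusted p 0.0241). With pairs drawn within cluster its log2 difference was -0.07 (adjusted p 0.910), without day 7 -0.33 (adjusted p 0.379), by DESeq2 it was not called (adjusted p 1.00), and in HEV gene-detected cells alone it was not called (-0.52, adjusted p 0.857). Near-identical copies of this gene exist in the mouse genome, so its count is uncertain. Glycam1, a mucin that carries L-selectin ligands, was higher in detected cells at vehicle (5678 against 4070 CPM) and lower at day 3 (2443 against 4788) and day 7 (2137 against 3469), and was not called (adjusted p 0.394). Enpp2, which makes lysophosphatidic acid, was at 1126 against 1281, 590 against 712 and 762 against 982 CPM and missed the threshold at 0.0502.

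Of 6 venous markers, 0 were called by edgeR or DESeq2, with 3 lower at an unadjusted p under 0.05 and a median log2 difference of -0.26; the smallest p was that of Lrg1, at 573 against 636, 817 against 938 and 344 against 633 CPM (adjusted p 0.109). Of 8 lymphatic markers tested, 2 were called lower (Ccl21a and Nts) and 0 higher by edgeR and 0 by DESeq2. The members went both ways, with 2 higher and 2 lower at an unadjusted p under 0.05 and a median log2 difference of 0.03. In Prox1-detected cells Nts stood at 102 against 399, 531 against 285 and 328 against 267 CPM and was not called (log2 -0.10, adjusted p 0.995), lower in detected cells at vehicle and higher at day 3 and day 7. Of the Ccl21a UMIs in detected cells, 2556 of 2807 at vehicle, 3427 of 3777 at day 3 and 647 of 876 at day 7 were in cells with HEV genes. Ackr4, a chemokine scavenger of ceiling lymphatic cells, was higher in detected cells in each library without passing the test (log2 0.37, SE 0.09, adjusted p 0.110). The cluster led by Ccl21a, Selp and Glycam1 made up 12.9%, 7.98% and 3.82% of the paired detected cells and 11.8%, 8.998% and 8.78% of the undetected ones.

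Atg12 itself was not called. It was at 67.7 against 69.1, 56.8 against 59.8 and 51.9 against 65.1 CPM, a log2 difference of -0.11 (SE 0.10, adjusted p 0.741). All 3 detected sums were slightly below their partners. The labels do not say which exon Cre removes, and 3-prime reads can come from outside it, so this count does not check the deletion. Its neighbours Cdo1 and Ap3s1 differed by 0.13 (adjusted p 0.836) and 0.01 (adjusted p 0.969).

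The autophagy lists gave 0 calls by edgeR and 0 by DESeq2. Of 16 genes of Atg12 conjugation and the ATG8 family, 1 was lower and 0 higher at an unadjusted p under 0.05: Atg7, the activating enzyme of both conjugation systems, at 24.0 against 25.4, 12.6 against 18.4 and 15.3 against 26.8 CPM (log2 -0.47, adjusted p 0.318). Map1lc3b, which encodes LC3B, was at 215 against 195, 233 against 231 and 256 against 225 CPM (log2 0.12, adjusted p 0.572). Of 14 cargo receptors and NRF2 targets, 2 were higher at an unadjusted p under 0.05, Gstm1 and Ftl1. Sqstm1, the cargo receptor p62, was at 213 against 273 CPM at vehicle but 152 against 134 and 151 against 149 afterwards, a log2 difference of -0.03 (SE 0.09).

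The stress and interferon lists gave 1 call over all paired cells. Heat shock and immediate-early genes gave 1 call of 19, Hsph1, a heat shock co-chaperone, which was lower at 236 against 278, 149 against 189 and 116 against 185 CPM (log2 -0.38, SE 0.08, adjusted p 0.0472). It was not called by DESeq2 (adjusted p 1.00), without day 7 (-0.28, adjusted p 0.467) or with pairs drawn within cluster (-0.20, adjusted p 0.645). The list as a whole had 2 genes higher and 4 lower at an unadjusted p under 0.05 and a median of 0.02; the higher ones were Btg2 (0.18) and Ier3 (0.16). Hspa1b, a near-identical copy of Hspa1a and so uncertain, was also lower in each library without passing (adjusted p 0.0697). Of 22 interferon-stimulated genes 0 were called over all paired cells, with 7 higher and 1 lower at an unadjusted p under 0.05. Ifit2 had the smallest p, at 50.4 against 38.9, 47.3 against 34.4 and 71.1 against 62.1 CPM (log2 0.37, adjusted p 0.166). The cluster led by Cxcl10 and Ifit3 made up 7.75%, 13.75% and 18.3% of the paired detected cells and 7.38%, 14.1% and 10.7% of the undetected ones. What this difference at day 7 contributes to these genes was not tested. The 16 pathway lists without a call over all paired cells leave out the cell type markers, the sex-linked genes and the Atg12 neighbours. They include the autophagy lists, p53 targets, lysosome, endoplasmic reticulum folding, class I and class II genes, junctions and matrix. Over all paired cells, 0 of their 212 genes were called by edgeR or DESeq2. Isg15, of the interferon list, was called in 1 class of endothelium, as given below. Of the 212, 25 were higher and 15 lower at an unadjusted p under 0.05. Both shares were above those of all genes (4.75% and 5.82%), more so for the higher ones, and the list medians ran from -0.12 to 0.10.

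Markers of other cell types differed in level between lists. Summed T cell markers were at 8.16 against 12.0, 17.2 against 17.0 and 11.5 against 7.66 CPM in detected against undetected cells at vehicle, day 3 and day 7. The 12 myeloid markers were at 17.8 against 14.9, 22.8 against 33.3 and 48.9 against 45.9 CPM. Platelet markers were at 64.3 against 69.6, 53.6 against 66.1 and 68.9 against 102 CPM, and plasma cell markers at 9.12 against 13.4, 12.0 against 12.2 and 44.25 against 33.6. At vehicle, 5 erythroid markers stood at 1.92 CPM in detected and 324 in undetected cells, and 8 pericyte and smooth muscle markers at 62.4 and 185. A cluster of 55 gated cells was led by the pericyte and smooth muscle markers Acta2 and Rgs5. It held 0 paired detected and 6 undetected cells at vehicle, and 1 against 1 at day 3 and at day 7. The 8 fibroblast markers were at 21.1 to 22.2 CPM against 27.8 to 44.6 before day 7, and at 183.8 against 206.7 at day 7, most of it Dcn (168 against 178). The 8 B cell markers were at 659 to 885 against 715 to 1079 CPM, nearly all of it Ebf1 (882 against 1072, 655 against 710 and 696 against 761). At day 3 and day 7 the pericyte markers were higher in detected cells, at 66.2 against 36.0 and 67.7 against 51.0. Among the paired cells, Xist was found in 0% against 0.369% at vehicle, 39.9% against 40.75% at day 3 and 58.4% against 39.7% at day 7. Those of day 3 and day 7 thus held cells of both sexes, in unequal shares between the arms at day 7. The part of these markers in the called genes was not tested.

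Within the classes of endothelium the calls were few. Cells with no UMI of Prox1, Fut7 or Chst4 (759 pairs), called other blood endothelium here, can include lymphatic or HEV cells in which these genes were not captured. They gave 12 calls of 9110 genes (0.132%), 3 higher (0.0329%) and 9 lower (0.0988%). Higher were Car4, at 178 against 113, 110 against 69.2 and 152 against 97.9 CPM (log2 0.68, adjusted p 0.00761), Fbln5, an elastic fibre protein (log2 0.73), and Isg15, an interferon-induced ubiquitin-like protein (log2 0.52, adjusted p 0.0411). Nts had the smallest p, at 0 against 2.76, 40.5 against 189 and 16.3 against 182 CPM (log2 -2.50, SE 0.18). Nts is on the list of lymphatic markers, and Ccl21a, of HEV and lymphatic cells, stood in the same class at 41.4 against 3.68, 101 against 79.5 and 158 against 464 CPM, so the name of the class rests on genes that were not detected. The chemokine Ccl5, an immune cell product, was lower as well (log2 -2.05), at 57 against 208 UMIs at day 3 but 2 against 5 and 1 against 29 in the others. Over all paired cells Ccl5 differed by -0.03 (adjusted p 0.987). With pairs drawn within cluster it was called lower over all cells (log2 -1.81, adjusted p 0.00706), at 2.45 against 4.90, 36.5 against 77.3 and 14.5 against 155 CPM. The remaining lower genes of other blood endothelium were Cdh2, Exoc4, Nckap5, Nxph1, Pde7b, Penk and Thsd7a.

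HEV gene-detected cells (155 pairs) gave 1 call of 6140 genes (0.0163%), Tafa2, at 33.7 against 261, 28.0 against 83.4 and 43.7 against 117 CPM (log2 -1.99, SE 0.24, adjusted p 0.0124). Prox1-detected cells (208 pairs) gave 6 calls of 8750 genes (0.0686%), all lower: Pcdh15, Vwc2, Mt1, Marco, Zeb2 and Id2. Pcdh15 was at 97.9 against 249, 37.9 against 95.9 and 65.8 against 196 CPM there (log2 -1.44, SE 0.16, adjusted p 0.00219), and every detected sum but that of vehicle lay below every undetected sum. Of the 39 genes called over all cells, 26 of the 27 that could be tested in other blood endothelium had the same sign there, 14 of 20 in HEV gene-detected cells and 34 of 35 in Prox1-detected cells. These are the same cells as in the sums over all classes, and differences between classes were not tested.

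A further pairing used the cluster of the cell in place of its Prox1 and HEV gene status, so that 2 choices changed at once (1094 pairs). At day 7 cells with HEV genes then made up 9.84% of the detected and 7.48% of the undetected arm. With this pairing 11 of 10821 genes were called, 2 higher and 9 lower, and 2 of them, Tafa2 and Cemip2, a membrane protein of hyaluronan turnover, were among the 39. Tafa2 was then at 18.1 against 58.8, 12.1 against 23.0 and 12.3 against 23.5 CPM (log2 -1.19, SE 0.17, adjusted p 0.00706). Car4 had a log2 difference of 0.43 and was no longer called (adjusted p 0.103), Pcdh15 had -0.31 (adjusted p 0.837), Fabp4 had -0.0028 and Cdkn1c 0.04. All 37 of the 39 genes with a value under both pairings were smaller in size within clusters, with a median absolute log2 difference of 0.31 against 0.62. Since they were chosen by their size under the first pairing, some of this decrease is fixed by the choice. The clusters were also built from variable genes of the same cells, and Cdkn1c, Fabp4 and Pcdh15 are among the genes that lead them. Pairing within clusters thus brings the 2 arms closer in such genes by design. Genes called higher within clusters but not before were Ier3, an immediate-early gene, at 869 against 665, 449 against 328 and 380 against 268 CPM, and Lgals1, galectin-1, at 77.8 against 42.6, 140 against 104 and 183 against 118 CPM. Those called lower but not before were Sdk1, Foxp2, Ccl5, Hs3st5, Plxdc2, Fmnl2 and Pdgfd. All of these were named after their values were seen.

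**Figure D5:**
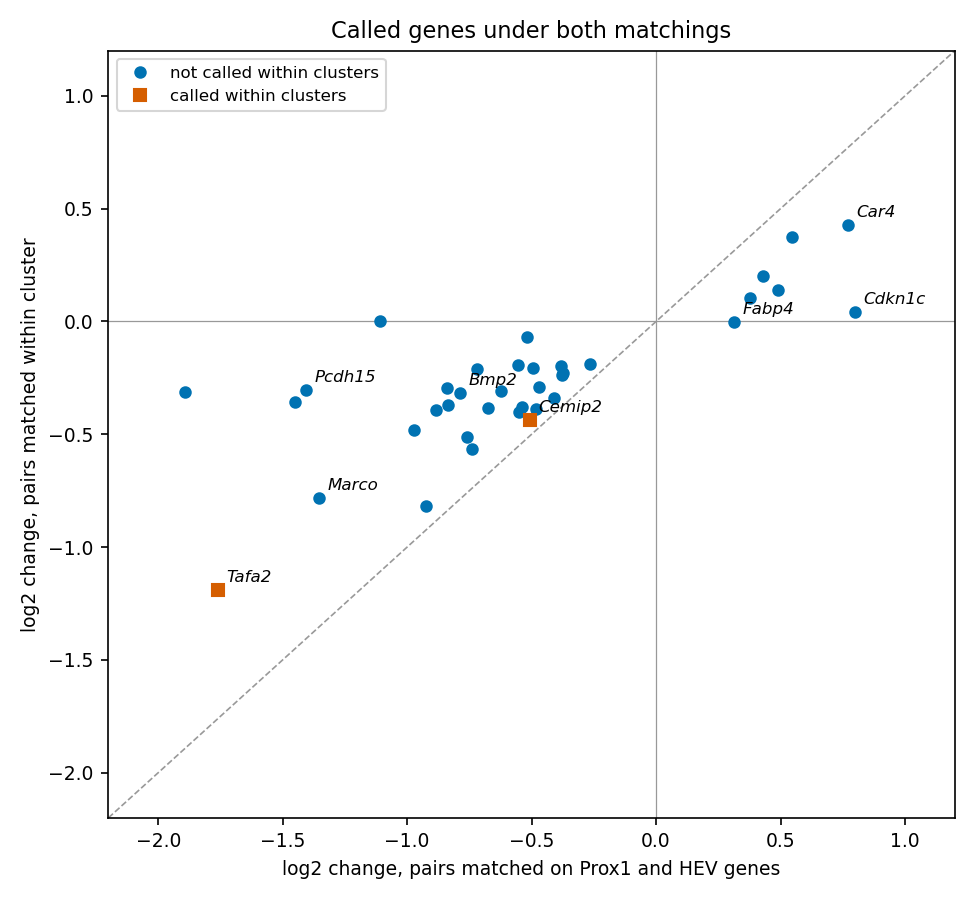
Log2 difference (mRFP-detected over undetected) of the 37 called genes with a value under both pairings, with pairs matched on Prox1 and HEV genes on the horizontal axis and matched within cluster on the vertical axis; the dashed line marks equal values. Points lie nearer to 0 on the vertical axis, Tafa2 and Cemip2 (squares) are called under both, and Fabp4 lies at -0.0028.

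The number of calls depended on the libraries and on the test. The 39 genes were called in the same direction in 3 to 14 of 16 alternatives, with a median of 8: Tafa2 in 14, Pcdh15 and Bmp2 in 12, Car4 in 10, Cdkn1c in 9, Ccl21a, Gpihbp1, Fabp4 and Nts in 6, Akap12 in 4 and Slc38a4 in 3. These alternatives are not independent of one another. Scaling by DESeq2 size factors and the fit without the expression filter used the same summed cells and each kept all 39 calls. The fit without the block and that with at least 2 mRFP UMIs each kept 0. With another random order of the cells the number of calls was 23, all among the 39. It was 6 without day 7, of which 5 were among the 39 (Tafa2, Pcdh15, Hs6st3, Ifitm1 and Mt1), so that each other gene named here as called over all cells lost its call. Without day 3 it was 108, and 9 of the 39 were not called. Among these were Ifitm1 (adjusted p 0.263), Mt1 (0.143), Akap12 (0.106) and Slc38a4 (0.0929). The number was 138 without vehicle. By DESeq2 it was 5, all among the 39 (Tafa2, Pcdh15, Csmd1, Bmp2 and Cemip2). Without the library block it was 0, with 69 genes at an unadjusted p under 0.05, and with at least 2 mRFP UMIs per detected cell (118 pairs) it was 0, with 217 such genes.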

How the data were processed

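RNA of single lymph node cells was measured with a 10x Genomics 3-prime kit in 12 libraries, of which 3 were compared. The authors deposited a matrix of UMI counts for each library, made with Cell Ranger 4 per the file headers, whereas the submitters' processing notes name Cell Ranger 7.0.1 and mm10. Coordinates were taken from GENCODE M21 (GRCm38), which holds 32158 of 32285 gene identifiers (99.6%). mRFP was left out of the totals used for pairing and of the summed counts tested. The mRFP levels, the thinning and the depth ranges used totals that include it. Pairs were drawn 1 to 1 without replacement, nearest in total UMIs within 0.1 on the log2 scale, in 4 strata of Prox1 by Fut7 or Chst4 detection. Summed counts were tested with edgeR 4.0.16 in R 4.3.3 (TMM, default expression filter, library as block, 2 residual degrees of freedom, Benjamini-Hochberg adjustment at 0.05); DESeq2 1.42.0 was an alternative. The 2 sums of a library are paired by their origin, and their deviations correlated at 0.582, 0.775 and 0.557. On simulated data of 10871 genes the test called 90 of 98 genes changed 2-fold and 96 of 96 changed 4-fold, with 10 false calls. The simulation used 1 dispersion (0.00385) for all genes and the same change in each library. It therefore does not give the power or the rate of false calls in these data, where differences vary between libraries. Clusters came from scanpy 1.11.5 (2000 variable genes, 30 components, 20 neighbours, Leiden resolution 1). Doublets were not removed from the main comparison; as an alternative the cells with the highest Scrublet scores were left out, at 0.8% per 1000 cells, since its automatic threshold marked nearly no cell at day 3. Depth was 1000 UMIs per cell or more. The members and gene lists were chosen with earlier results of these data known.

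Named genes were those called with a mean of at least 20 CPM and 1 direction in all 3 libraries (the 12 largest each way), Atg12 and its neighbours, sex-linked genes and the 3 members of each list with the smallest p. Cavin2, Plvap, Apoe, Ackr4, Glycam1, Sqstm1, Malat1, Cemip2, Ifitm1, Btg2, Ier3 and the genes called within classes or clusters were named after their values were seen. The same holds for Lrg1, Dcn, Ebf1, Ccnb2, Tpx2, Dpyd, B3galt1 and Ccl3. Alternatives were other scaling, filters, pairings, gates and left-out libraries. Groups came from the sample labels.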

Additional observations from a re-analysis of the deposited data

Results flagged for a closer look

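Signal of mRFP was found outside the cells compared. In barcodes with 100 UMIs or fewer, too few for a cell, mRFP stood at 6.96 CPM at vehicle (21 UMIs, 95% exact Poisson interval 4.31 to 10.6), 11.4 CPM at day 3 (51 UMIs, 8.47 to 15.0) and 7.30 CPM at day 7 (23 UMIs, 4.63 to 10.96). The Cre-negative day 7 library had 0 mRFP UMIs among 3365945 UMIs of such barcodes. Immune cells of the same Cre-positive libraries were at 0, 0.562 and 0 CPM. These values stood out because they lie above the Cre-negative level in barcodes that no comparison used.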

How the results depend on the processing

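The 39 calls over all endothelial cells ranged from 6 to 138 when 1 library was left out. They numbered 54 with DESeq2 size factors, 5 with DESeq2, 113 without the expression filter, 32 with a wider limit of 0.3, 2428 without matching, 23 with another random order of cells, 11 within clusters, 92 without high doublet scores, 7 with a stricter gate and 29 with at least 2000 UMIs per cell. With 3 undetected cells per detected cell, chosen after seeing the data, there were 86. Without the replicate block there were 0 in the whole (69 genes at an unadjusted p under 0.05) and 0 in each class (80, 64 and 203 such genes in other blood, HEV gene-detected and Prox1-detected cells). With at least 2 mRFP UMIs there were 0.

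In other blood endothelium the 12 calls became 1 with DESeq2 and 33 to 62 with a library left out. In HEV gene-detected cells the 1 call became 1 to 5, and in Prox1-detected cells the 6 became 2 with DESeq2 and 0 (without day 7) to 97 (without vehicle). After thinning to 2000 UMIs the shares with mRFP were 2.33%, 4.28% and 2.53%.

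Without matching, where depth and class differ, log2 differences turned for Car4 (-0.38), Ccl21a (0.68), Ccl3 (0.35), Cd36 (-0.64), Cdkn1c (-0.59), Fabp4 (-0.62), Gpihbp1 (-0.39), Mgp (-1.22), Nts (0.014), Sele (0.49) and Selp (0.50). With at least 2 mRFP UMIs they turned for Akap12 (-0.50), Dpyd (0.0037), Marco (0.44) and Nts (0.52), and within clusters for B3galt1 (0.0035) and Fabp4 (-0.0028). The cause was not tested. Tafa2 passed under 14 of 16 alternatives; the exceptions were the fit without the block and the cells with at least 2 mRFP UMIs.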

Other observations

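Cells of both sexes were present at day 3 and day 7, as read from Xist, the X inactivation RNA, and from the Y-linked genes Ddx3y, Eif2s3y, Kdm5d and Uty. At day 7, endothelial cells with Xist and no Y-linked UMI held mRFP at 16.2 CPM (95% exact Poisson interval 13.8 to 18.8, 1505 cells), and cells with a Y-linked UMI and no Xist at 9.06 CPM (6.68 to 12.0, 733 cells). The median depths were 5986 and 6091 UMIs. At day 3 the same classes held 22.2 CPM (19.6 to 25.1) and 20.04 CPM (17.8 to 22.5). At vehicle 3126 cells had Y-linked UMIs alone and 1 had Xist alone, and the former held 12.2 CPM. Each is 1 library, so no test was made.

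The cycling markers, which the comparison of pairs left without a call by edgeR or DESeq2, had a median log2 difference of 0.25 over 9 genes, with 4 higher and 0 lower at an unadjusted p under 0.05, beside 4.75% and 5.82% of all genes tested. Ccnb2, a mitotic cyclin, was at 12.0 against 9.12, 61.9 against 46.6 and 20.4 against 13.2 CPM in detected against undetected cells (edgeR log2 0.47, adjusted p 0.165). Tpx2, a spindle protein, was at 21.6 against 14.4, 63.8 against 51.2 and 17.9 against 11.9 CPM (adjusted p 0.223). Both were higher in detected cells in all 3 libraries. The cycling-like cluster made up 3.32%, 16.3% and 3.05% of the paired detected cells at vehicle, day 3 and day 7 and 2.21%, 17.15% and 3.44% of the undetected ones, a smaller share of the detected cells at day 3 and day 7.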
